A study of Nicotiana tabacum with 9 samples.

Results

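Leaf RNA of tobacco (Nicotiana tabacum) was compared between the plant material KY and the midpoint of 2 other materials, K326 and Y, to describe the genes whose signal in KY lay outside the range of both. The 9 libraries comprise 3 of genotype K326, 3 of genotype Y and 3 of genotype KY. All are labelled as leaf tissue, and the labels used here give no treatment, age or growth stage and do not say how KY is related to K326 or to Y, so no parentage is assumed. K326 is a widely grown flue-cured tobacco cultivar. Replicates carry a number and are not said to come from separate plants, so p-values reflect only how far the libraries of a material differ, and part of that may be technical.

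The authors' table gives an expression signal for 69500 genes, of which 16348 reached an average of 1 or more across all 9 libraries and were tested. For each gene, the difference between the KY mean and the average of the K326 and Y means was taken on the log2(signal + 1) scale, on which changes at low signal come out too small. A gene was called when its Benjamini-Hochberg adjusted p from limma, over all genes tested, was below 0.05. This called 199 genes, 1.22% of those tested. Of the 199 genes, 106 also had all 3 KY libraries outside all 6 K326 and Y libraries, which is 0.648% of the genes tested. These 106 genes are the members described here: in 15 of them (0.0918% of the genes tested) KY lay above both materials and in 91 (0.557%) it lay below both.

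A contrast with a midpoint departs from 0 both where one material stands apart from the other 2 and where it merely has the level of one of them while the other differs. Expression beyond the range of both comparators is called transgressive when the comparators are parents. Several gene groups that occur among the members have well known roles in leaves: light-harvesting proteins bind chlorophyll and pass excitation to the photosystems, SWEET proteins carry sugars across membranes, transketolase rearranges sugar phosphates in the Calvin cycle and the pentose phosphate pathway, and basic-leucine zipper, AP2/ERF and WRKY proteins are DNA-binding regulators of responses to light, hormones and stress.

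Library sums of the signal ranged from 551496 to 603165, and 30510 to 33397 genes were above 0. The leaf label was matched by high summed signals of the light-harvesting genes, at 37730 ± 5820 in K326, 42050 ± 3400 in Y and 49050 ± 9990 in KY (SD, n = 3 each), and of the Rubisco and Calvin cycle genes, at 65310 to 79670 in the means of the 3 materials. The 15 tested genes of the root alkaloid list, out of 69 described, summed to 189 ± 13.0, 159 ± 9.39 and 158 ± 22.4 in K326, Y and KY. Among the KY libraries, replicate 1 was the odd one: it correlated best with K326 replicate 3 (r = 0.954 across genes, which are not independent), while KY replicates 2 and 3 correlated best with each other (r = 0.955). The match was mutual: K326 replicate 3 also correlated best with KY replicate 1, and K326 replicates 1 and 2 with each other (r = 0.959), so a library of each material lay nearer to the other material than to its own. Both were kept as labelled. Histone signal also differed among the KY libraries, summing to 3620 in KY replicate 1 against 1431 and 1581 in KY replicates 2 and 3. It summed to 3585, 2706 and 4996 in K326 replicates 1 to 3 and to 1767, 2152 and 1486 in Y. The 56 tested flower and pollen genes summed to 1333 in KY replicate 1 against 646 and 818 in KY replicates 2 and 3. Their sums were 1117, 1105 and 1277 in K326 and 899, 863 and 807 in Y. The part of these differences in the results below was not tested. In leaf RNA as a whole, fewer cells of a type and less RNA per cell cannot be told apart.

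KY was below the midpoint in 10613 of the 16348 tested genes and above it in 5735. Among all tested genes, 148 (0.905%) were called lower and 51 (0.312%) higher, and at an unadjusted limma p below 0.05 the counts were 1585 and 483. Whether called or not, all 3 KY libraries lay below the other 6 in 698 genes (4.27%) and above them in 142 (0.869%), 5.14% together. This imbalance moved with the scaling. The median difference over all tested genes was -0.10 on the log2 scale with the deposited values and 0.02 with median-of-ratios scaling, under which 366 genes lay below and 346 above. The split of the called genes was then 116 lower and 65 higher, and with quantile normalization it was 100 lower and 60 higher. Among the members, median-of-ratios scaling gave 59 below and 23 above, and quantile normalization gave 47 below and 24 above. All 106 members kept their direction under both scalings, and 76 and 66 of them kept the call.

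**Figure D1:**
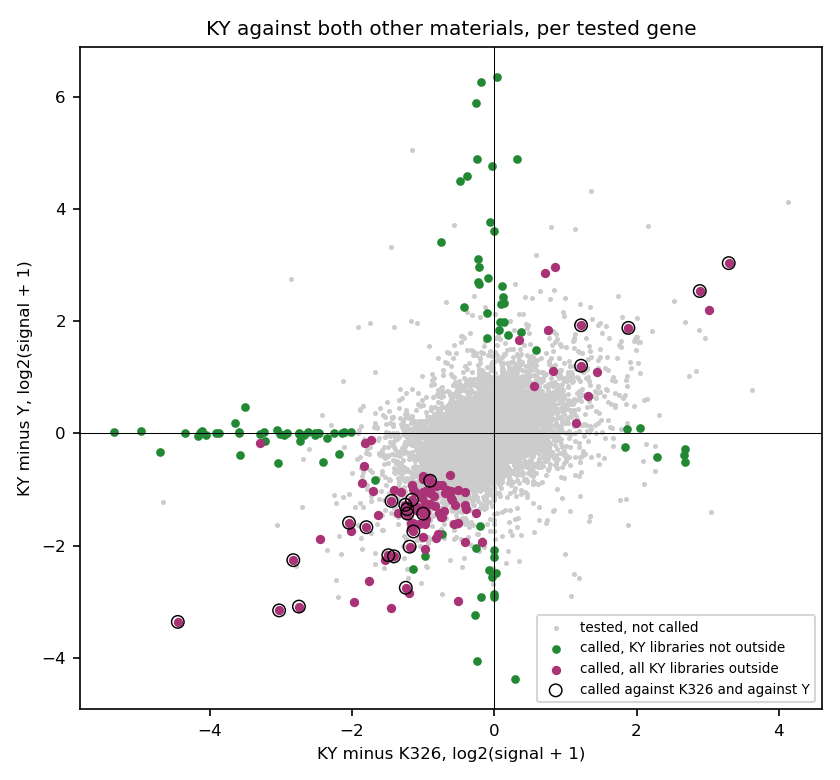
Difference of KY from K326 (horizontal axis) and from Y (vertical axis) on the log2(signal + 1) scale, 1 point for each of 16348 tested genes. The 106 members fall where both differences have the same sign, the 23 genes called in both pairwise contrasts are ringed, and in 51 of the 93 called genes whose KY libraries were not all outside the KY mean lay between the other means.

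The other 93 called genes did not have KY outside both materials in all libraries. Of these 93 genes, 88 also differed between Y and K326 by limma's adjusted p, against 20 of the 106 members. Over all tested genes, 325 (1.99%) did. The gap between 88 and 20 follows in part from how these groups were defined, so nothing is concluded from it. The contrasts of KY with K326, of KY with Y and of KY with the midpoint share the KY libraries, so they are not independent. Set side by side, 129 genes (0.789%) were called against K326, 0.232% of all tested genes higher and 0.557% lower in KY, and 212 (1.3%) against Y, 0.483% higher and 0.814% lower. Among the members, 23 were called in both pairwise contrasts, 12 against K326 only, 56 against Y only and 15 in neither. The 23 genes are 0.141% of those tested, with 5 higher (0.0306%) and 18 lower (0.11%). In 68 of the 91 members below (74.7%) the Y mean was above the K326 mean, whereas this held for 427 of all 698 genes with KY libraries below (61.2%) and for 6535 of all 16348 tested genes (40%).

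**Figure D2:**
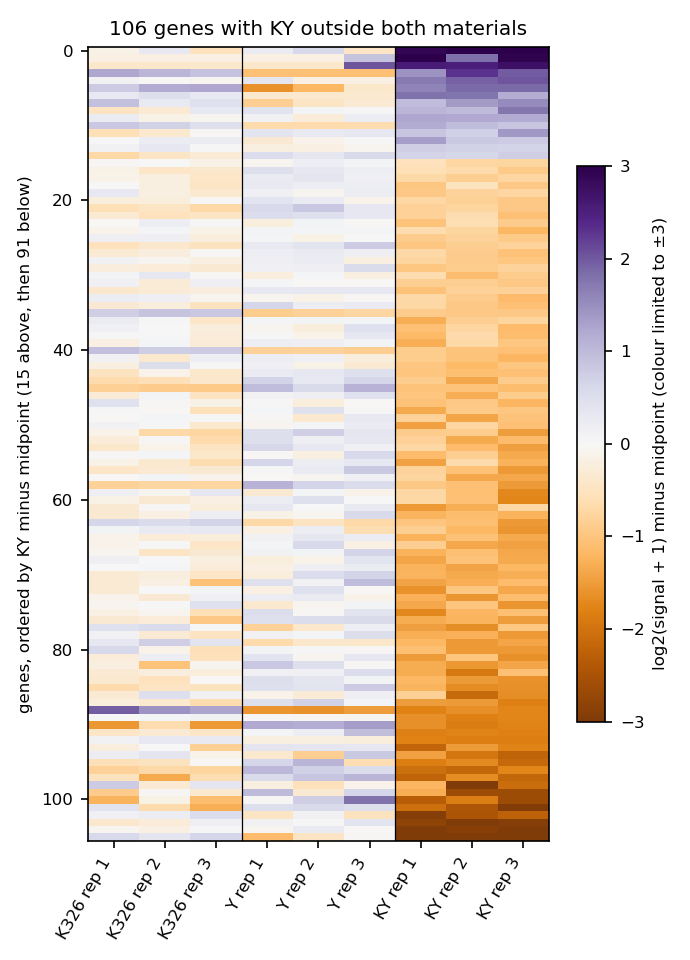
The 106 members (rows, ordered by KY minus midpoint) in the 9 libraries (columns), coloured by log2(signal + 1) minus the midpoint of K326 and Y, with the colour limited to 3 in either direction. The 15 genes above appear purple and the 91 genes below appear orange in all 3 KY libraries, while the K326 and Y libraries lie nearer to 0 or on either side of it.

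The 15 genes with KY above both materials were led by a gene with a Wax2 C-terminal domain, Nitab4.5_0020701g0010. In Arabidopsis, proteins of the WAX2 type take part in the synthesis of cuticular wax. Its signal was 0.78, 1.43 and 0.36 in K326, 1.31, 1.99 and 0.46 in Y and 13.7, 18.2 and 18.8 in KY. Every KY library lay far above the other 6, and the 2 other materials overlapped. KY exceeded the midpoint by 3.17 ± 0.26 (SE) on the log2 scale (limma adjusted p = 0.000541), with adjusted p = 0.000751 against K326 and 0.00141 against Y. The lipid transfer and wax list had 2 of 72 tested genes called higher and 0 lower, against 0.312% and 0.905% of all tested genes. Its median difference was -0.26, and 12 were lower at an unadjusted limma p below 0.05.

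A SWEET sugar transporter, Nitab4.5_0007236g0030, was also higher in KY than in both other materials. The signal was 22.0, 16.7 and 17.6 in K326 and 20.1, 15.3 and 21.5 in Y, and it was 45.5, 44.9 and 43.9 in KY. The 3 KY libraries were close together and apart from all others, and K326 and Y overlapped. The difference from the midpoint was 1.21 ± 0.15 (SE) on the log2 scale (limma adjusted p = 0.00513), with adjusted p = 0.0126 against K326 and 0.0102 against Y.

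Another SWEET gene, Nitab4.5_0000849g0010, moved the other way. It gave 3.79, 1.65 and 3.41 in K326, 9.11, 11.2 and 12.9 in Y and 0.47, 1.13 and 0.50 in KY, so the 3 materials did not overlap and KY was lowest. The difference from the midpoint was -2.02 ± 0.23 (SE) (limma adjusted p = 0.00352). The gene was called against Y (adjusted p = 0.000994) and not against K326 (adjusted p = 0.111). Of 20 tested SWEET genes these were the only 2 called, against 1.22% of all tested genes, and the median of the family was 0.02. A further pair of SWEET genes, named for their spread after the values were seen, had no common level in KY: Nitab4.5_0004728g0030 gave 72.0, 495 and 278 and Nitab4.5_0009485g0020 gave 57.9, 370 and 233 in KY replicates 1 to 3, against 71.9 to 238 in the K326 and Y libraries of both genes.

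A pair of light-harvesting chlorophyll a/b-binding genes was higher in KY. Nitab4.5_0023502g0010 gave 29.8, 33.2 and 51.0 in K326, 56.3, 43.2 and 43.1 in Y and 87.3, 84.8 and 143 in KY. Nitab4.5_0000592g0370 gave 99.4, 117 and 147 in K326, 197, 182 and 187 in Y and 273, 248 and 396 in KY. In both genes KY replicates 1 and 2 were close and replicate 3 was highest. Their differences were 1.27 ± 0.23 and 0.99 ± 0.18 (SE) (limma adjusted p = 0.0387 and 0.0378), and the calls were lost under 10 and 9 of 20 alternative settings.

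Over all 72 tested light-harvesting genes, limma called 2 higher and 1 lower, against 0.312% and 0.905% of all tested genes. At an unadjusted limma p below 0.05, 18 were higher and 4 lower. Of the 72 genes, 54 lay above the midpoint, against 5735 of all 16348 tested genes. All KY libraries were above the others in 5 (6.94%, against 0.869% of all tested genes) and below in 1 (1.39%, against 4.27%). The median difference was 0.20 against -0.10 over all genes. With median-of-ratios scaling the counts above and below were 10 and 0, against 346 and 366 of all 16316 genes tested under that scaling. A further gene of the family, Nitab4.5_0000592g0380, was listed at 0 in all 6 K326 and Y libraries and in KY replicate 2, and at 26.2 and 197 in KY replicates 1 and 3. It was not called. The 1 gene called lower, Nitab4.5_0000471g0030, was not outside both materials: it gave 49.0, 62.8 and 37.3 in KY and 54.9, 58.9 and 54.9 in K326, against 149, 159 and 159 in Y.

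Several members above had little or no signal in one or both of the other materials. An F-box gene, Nitab4.5_0001863g0050, whose description also carries a 4Fe-4S ferredoxin site, gave 0.21, 0.12 and 0.06 in K326, 0.45, 0 and 0 in Y and 2.66, 3.34 and 3.57 in KY. F-box proteins select substrates for ubiquitin ligases. KY was higher by 1.88 ± 0.19 (SE) (limma adjusted p = 0.00183) and was called against each material. A cytochrome c assembly gene, Nitab4.5_0001130g0160, which belongs to the machinery that attaches haem to cytochromes in organelles, gave 0.56, 0.78 and 0.57 in K326, had a listed signal of 0 in each Y library and gave 3.46, 3.33 and 1.86 in KY. It was 1.57 above the midpoint (limma adjusted p = 0.00435) and also passed the minimum only through its KY signal.

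A gene with a chloramphenicol acetyltransferase-like domain, Nitab4.5_0001256g0040, a fold shared with plant acyltransferases, was listed at 0 in the 3 Y libraries. It gave 3.86, 3.29 and 2.87 in K326 and 4.62, 9.35 and 7.20 in KY. The call against the midpoint (limma adjusted p = 0.00224) rested on Y, since the adjusted p was 0.000259 against Y and 0.198 against K326. The same holds for the methionine sulphoxide reductase gene Nitab4.5_0006892g0030, whose product repairs oxidised methionine in proteins. It gave 10.2, 13.7 and 14.2 in K326, 1.12, 1.86 and 3.84 in Y and 18.7, 22.7 and 22.6 in KY, with adjusted p = 0.4 against K326 and 0.00141 against Y.

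The other members above were a rhodanese-like gene, Nitab4.5_0009274g0040, a short-chain dehydrogenase, an F-box gene with a DUF295 domain, a DUF1336 gene, a GDXG-type lipase, the translation factor EF4 and 1 gene of unknown description. The rhodanese-like gene was listed at 0 in all K326 libraries and in 2 of 3 Y libraries, with 4.45 in Y replicate 3, and gave 6.83, 6.61 and 7.84 in KY. Its call (limma adjusted p = 0.0443) was lost under 13 of 19 alternative settings. EF4, Nitab4.5_0001663g0160, was nearest to Y: it gave 67.9, 80.7 and 89.7 in K326, 160, 140 and 165 in Y and 175, 170 and 186 in KY. Differences over these 7 genes ranged from 0.67 to 2.71. Of the 15 members above, 5 had a mean below 1 over the K326 and Y libraries and so passed the minimum through their KY signal. The F-box gene Nitab4.5_0001863g0050 and the cytochrome c assembly gene are among these 5.

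Among the 91 genes with KY below both materials, transketolase had the smallest adjusted p. The gene Nitab4.5_0001329g0110 gave 509, 463 and 539 in K326, 509, 626 and 526 in Y and 51.4, 70.4 and 62.6 in KY. K326 and Y overlapped, and each KY library was far below them. The means were 504 ± 38.2, 554 ± 63.5 and 61.5 ± 9.53 (SD, n = 3 each), a difference of -3.09 ± 0.13 (SE) from the midpoint (limma adjusted p = 4.91e-05). The pairwise adjusted p were 1.52e-05 against K326 and 1.62e-05 against Y.

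Of 12 tested genes with transketolase domains, this was the only one with KY outside both materials. Another of them, Nitab4.5_0003912g0020, gave 584, 529 and 644 in K326, 541, 720 and 588 in Y and 596, 703 and 653 in KY, with overlapping materials and a difference of 0.12 (limma adjusted p = 0.756). The summed signal of the 12 genes was 1252 ± 106 in K326, 1323 ± 158 in Y and 873 ± 49.4 in KY (SD, n = 3 each). Tobacco is an allotetraploid with many gene pairs of nearly the same sequence, and reads shared between copies may have been divided between them by the authors' processing. Among the 37 tested Rubisco and Calvin cycle genes 0 were called by limma (4 higher and 3 lower at an unadjusted p below 0.05), and 1 gene each had all KY libraries above and below the others.

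A mitochondrial carrier, Nitab4.5_0010196g0040, had the largest difference of all members. Carriers of this family move metabolites or protons across the inner mitochondrial membrane, and its description names an uncoupling protein. It gave 31.0, 26.1 and 31.9 in K326, 8.56, 14.2 and 19.6 in Y and 0, 0.19 and 1.32 in KY. The materials did not overlap, and KY was at or near 0. The difference was -3.90 ± 0.31 (SE) (limma adjusted p = 0.000394). Among 59 tested mitochondrial carriers it was the only one called, against 1.22% of all tested genes. The family median was -0.08 against -0.10 over all genes.

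A gene described with an RNA recognition motif and a DAHP synthetase domain, the latter known from the entry step of the shikimate pathway, was almost without signal in KY. This gene, Nitab4.5_0002401g0040, gave 6.71, 7.46 and 10.2 in K326, 9.87, 9.43 and 12.2 in Y and 0.46, 0.24 and 0.34 in KY (difference -2.92 ± 0.16 (SE), limma adjusted p = 7.97e-05). Another RNA recognition motif gene, Nitab4.5_0001651g0030, gave 2.82, 3.38 and 3.28 in K326 and 2.08, 2.08 and 1.98 in Y, and only 0.03, 0 and 0 in KY (limma adjusted p = 0.000291). KY libraries were below all others in both genes. In all, 29 of the 91 members below had a KY mean under 1.

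The SINA-like E3 ubiquitin ligase Nitab4.5_0000258g0230 gave 8.39, 8.66 and 9.01 in K326, 7.98, 7.85 and 7.83 in Y and 2.00, 1.62 and 1.76 in KY. Its difference was -1.73 ± 0.11 (SE) (limma adjusted p = 0.000214), and it was called against each material. The G-box-binding basic-leucine zipper gene Nitab4.5_0002262g0160 gave 8.84, 9.70 and 9.27 in K326, 34.1, 27.5 and 24.0 in Y and 3.15, 2.84 and 4.13 in KY. Here K326 and Y also stood apart, and KY was below the lower of them (difference -2.0 ± 0.15 (SE), limma adjusted p = 0.000383, with 0.0142 against K326).

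**Figure D3:**
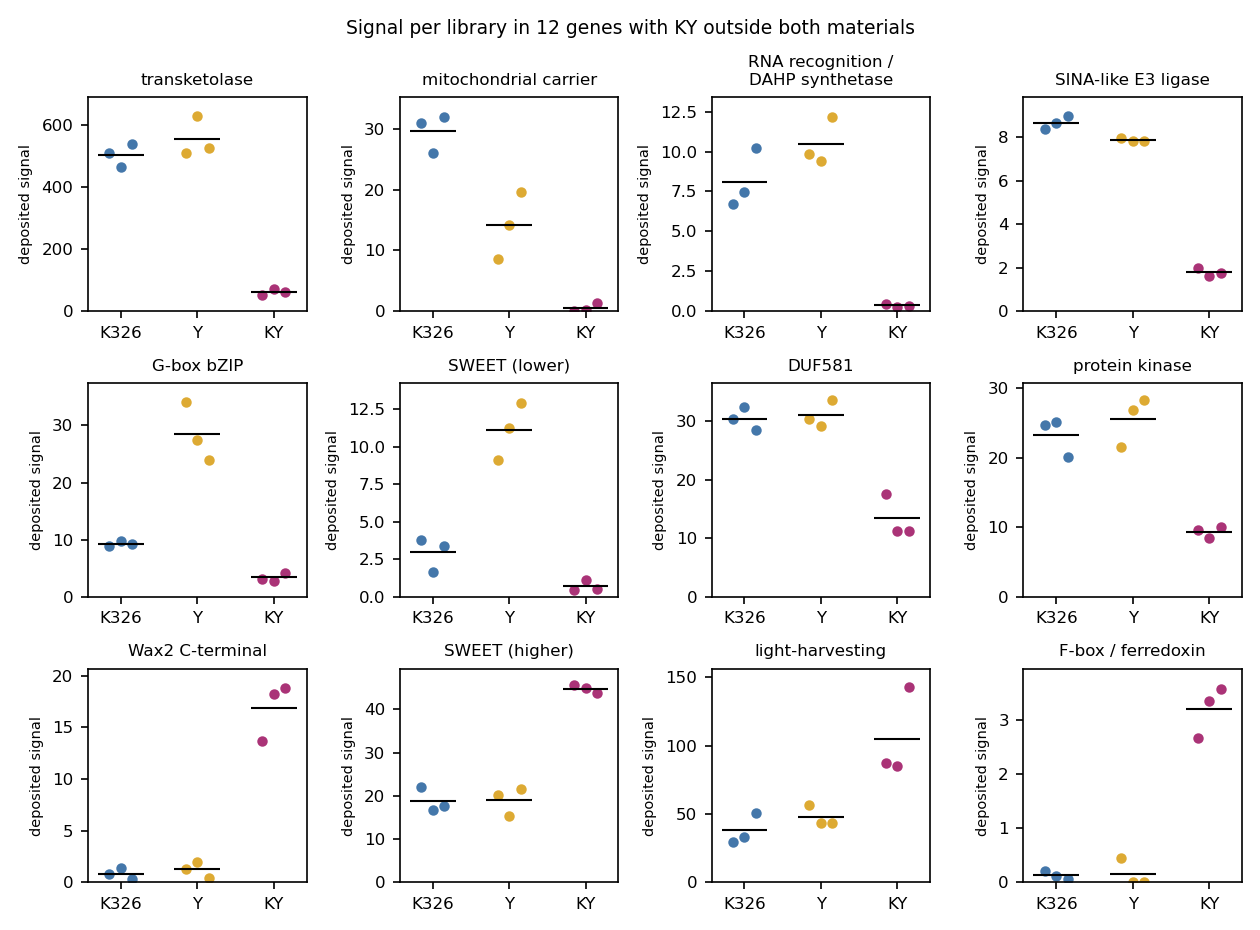
Deposited signal in each library of 12 members, by material, with the mean as a line; each vertical axis starts at 0. In 8 genes the 3 KY points lie below all K326 and Y points, as in transketolase with 51.4 to 70.4 against 463 to 626, and in 4 genes they lie above, as in the SWEET gene with 43.9 to 45.5 against 15.3 to 22.0.

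The basic-leucine zipper family, with 63 tested genes, had 1 called higher and 2 lower, against 0.312% and 0.905% of all tested genes. The other one called lower, Nitab4.5_0002543g0050, gave 2.22, 3.58 and 1.95 in KY and 5.27 to 11.1 in the other 6 libraries (limma adjusted p = 0.0199). Of 93 tested AP2/ERF genes, which include ethylene response factors, limma called 0 higher and 2 lower, against 0.312% and 0.905% of all tested genes. At an unadjusted limma p below 0.05, 4 were higher and 13 lower. Nitab4.5_0006203g0030 gave 0.35, 0.09 and 0.50 in KY and 1.57 to 2.89 elsewhere (limma adjusted p = 0.0106). Nitab4.5_0001603g0010 gave 11.1, 10.2 and 7.16 in KY, close to the 12.3, 13.1 and 13.0 of K326 and well below the 48.3, 36.2 and 32.7 of Y. It was not called against K326 (limma adjusted p = 0.488).

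A WRKY gene, Nitab4.5_0000627g0060, showed the mirror pattern. It gave 2.98, 3.42 and 3.24 in K326, 0.31, 0.37 and 0.43 in Y and 0.29, 0.25 and 0.25 in KY, so KY was outside Y only by a small margin, and the adjusted p of limma was 0.0182 against the midpoint and 0.846 against Y. The UDP-glycosyltransferase Nitab4.5_0000636g0130, one of a family that attaches sugars to small molecules, was of this kind as well, with 14.4, 9.80 and 8.49 in K326, 0.32, 0.29 and 0.41 in Y and 0.14, 0.28 and 0.17 in KY. Its limma adjusted p was 0.00222 against the midpoint and 0.815 against Y. Such genes meet the rule for being outside both materials while a difference from the nearer material was not detected.

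Signalling enzymes were lower in KY as single genes. A serine/threonine protein kinase, Nitab4.5_0006408g0010, gave 24.7, 25.1 and 20.1 in K326, 21.5, 26.9 and 28.3 in Y and 9.63, 8.43 and 10.1 in KY (difference -1.29 ± 0.14 (SE), limma adjusted p = 0.00324). K326 and Y overlapped, and KY was apart. A phosphatidylinositol 3-/4-kinase gene, Nitab4.5_0013740g0020, gave 5.6, 7.57 and 5.81 in KY and 13.8 to 21.9 elsewhere (limma adjusted p = 0.0119). A kinase with the NAF/FISL domain, which binds calcium sensors of the calcineurin B-like type, Nitab4.5_0004815g0040, gave 12.2, 10.6 and 8.74 in KY and 18.3 to 23.8 elsewhere (limma adjusted p = 0.0182). The description of Nitab4.5_0006408g0010 names this domain as well. Of 604 tested protein kinases, 6 were called lower and 1 higher, against 0.905% and 0.312% of all tested genes. All KY libraries lay below the others in 30 kinases (4.97%), near the 4.27% of all genes.

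The HAL2-type bisphosphate nucleotidase gene Nitab4.5_0003114g0090, whose product removes phosphate from a by-product of sulphation, gave 1.5, 1.91 and 1.35 in KY, 4.43, 3.97 and 4.05 in K326 and 5.46, 6.56 and 5.86 in Y (limma adjusted p = 0.00276). Glutamate decarboxylase, Nitab4.5_0001180g0150, the enzyme that makes gamma-aminobutyrate, gave 2.03, 1.47 and 2.31 in KY and 3.32 to 7.17 elsewhere (limma adjusted p = 0.0254). The acireductone dioxygenase gene Nitab4.5_0000090g0310, of the methionine salvage cycle, gave 112, 156 and 116 in KY and 163 to 270 elsewhere (limma adjusted p = 0.0417).

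A cold acclimation gene of the WCOR413 type, Nitab4.5_0008782g0020, gave 44.8, 29.7 and 38.6 in KY and 62.2 to 97.9 elsewhere (limma adjusted p = 0.0242). A late embryogenesis abundant gene, Nitab4.5_0008334g0040, one of the proteins that protect drying tissue, gave 0.24, 0.71 and 0 in KY, 1.65, 4.67 and 1.91 in K326 and 5.07, 9.50 and 20.6 in Y. The Y libraries spread widely, and the call (limma adjusted p = 0.0359) was lost under 10 of 19 alternative settings. A basic secretory protein gene, Nitab4.5_0004326g0040, gave 2.59, 1.71 and 0.91 in KY, 18.8, 8.43 and 5.05 in K326 and 19.8, 21.3 and 19.7 in Y (limma adjusted p = 0.0106).

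A major latex protein of the Bet v I family, Nitab4.5_0008046g0010, gave 1.06, 0.74 and 0.87 in KY and 1.17, 3.08 and 1.21 in K326, so these 2 materials nearly touched. Y was far higher at 13.8, 13.2 and 15.2, and the limma adjusted p was 0.00482 against the midpoint and 0.476 against K326. A pair of glutaredoxins, which reduce disulphides with glutathione, was called lower out of 53 tested, against 0.905% of all tested genes. Of the pair, Nitab4.5_0000824g0010 gave 42.9, 57.0 and 46.9 in KY and 74.1 to 99.4 elsewhere (limma adjusted p = 0.0227). The other, Nitab4.5_0005617g0010, gave 3.05, 0 and 1.20 in KY and 5.34 to 15 elsewhere (limma adjusted p = 0.0448). Neither glutaredoxin was called under median-of-ratios scaling or quantile normalization.

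The DUF581 family held 3 members. Its products, the FCS-like zinc-finger proteins, bind the energy-sensing kinase SnRK1 in Arabidopsis. Of 21 tested genes, limma called 3 lower and 0 higher, against 0.905% and 0.312% of all tested genes. At an unadjusted limma p below 0.05, 12 were lower and 0 higher. Below the midpoint lay 18 of the 21, against 10613 of all 16348 tested genes. All KY libraries lay below the others in 7 (33.3%) against 4.27% of all tested genes, and in 6 under either of the other scalings. The median difference was -0.50 against -0.10 over all genes. Nitab4.5_0001565g0010 gave 30.5, 32.5 and 28.5 in K326, 30.4, 29.2 and 33.7 in Y and 17.6, 11.3 and 11.3 in KY (difference -1.17 ± 0.16 (SE), limma adjusted p = 0.0106).

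Nitab4.5_0011907g0010 gave 46.3, 39.3 and 52.3 in K326, 32.5, 43.4 and 38.6 in Y and 25.1, 18.9 and 11.9 in KY (limma adjusted p = 0.0443). In both genes KY replicate 1 was the KY library closest to the other materials. The third member, Nitab4.5_0002628g0060, gave 2.45, 2.07 and 3.37 in K326, 5.18, 4.68 and 3.71 in Y and 0.94, 0.55 and 0.45 in KY (limma adjusted p = 0.00513). The 4 other DUF581 genes with all KY libraries below had differences of -1.14 to -0.90 and were not called. The summed signal of the family was 653 ± 14.8 in K326, 538 ± 35.6 in Y and 430 ± 128 in KY (SD, n = 3 each), with 565, 413 and 310 in KY replicates 1 to 3, so KY replicate 1 lay among the Y libraries. Without KY replicate 1, the number of DUF581 genes below the others rose to 13. Over all tested genes that number also rose, from 698 of 16348 to 2388 of 16325, since fewer KY libraries have to lie below.

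A small family described as Ninja held 2 members. In Arabidopsis the NINJA adaptor joins jasmonate repressors to a corepressor. The descriptions give only the name Ninja and do not say which of these genes have that role. Of 9 tested genes, 2 were called lower, against 0.905% of all tested genes, and 6 were lower at an unadjusted limma p below 0.05. All KY libraries were below the others in 5, against 4.27% of all tested genes, and in 4 under either other scaling. Nitab4.5_0002957g0010 gave 18.3, 22.8 and 19.6 in K326, 29.3, 23.4 and 28.4 in Y and 7.38, 8.81 and 13.8 in KY (difference -1.19 ± 0.19 (SE), limma adjusted p = 0.0238). Nitab4.5_0000231g0240 gave 1.45, 0 and 0.39 in KY and 2.48 to 5.12 elsewhere, and its call (limma adjusted p = 0.0474) was lost under 15 of 19 alternative settings. Neither was called with median-of-ratios scaling or quantile normalization. The summed signal was 55.6 ± 7.96 in K326, 61.6 ± 12.8 in Y and 31.8 ± 2.37 in KY (SD, n = 3 each), and the 3 KY sums, 29.1 to 33.5, lay below the other 6, 47.4 to 72.2. The 8 tested genes of the TIFY list had 0 called by limma, 0 at an unadjusted p below 0.05 and 0 outside. Of these 8, Nitab4.5_0001773g0050 is described with a GATA-type zinc finger and need not be a jasmonate repressor.

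Rubber elongation factor-type genes, whose products coat lipid droplets, included 2 members among 4 tested, against 0.557% of all tested genes that were members below. Nitab4.5_0001404g0050 gave 225, 221 and 184 in K326, 227, 201 and 277 in Y and 97.5, 139 and 101 in KY (limma adjusted p = 0.0254). Nitab4.5_0000060g0050 gave 77.4, 82.9 and 59.5 in K326, 79.3, 68.9 and 121 in Y and 35.8, 43.6 and 30.6 in KY (limma adjusted p = 0.0437). K326 and Y overlapped in both, and KY lay below. The other 2 genes had differences of 0.01 and 0.39 and overlapped between materials. Both calls were lost with median-of-ratios scaling and with quantile normalization.

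Protein phosphatases of the 2C class, some of which restrain abscisic acid signalling, had 4 of 77 genes called lower and 0 higher by limma. Of all tested genes, 0.905% were called lower and 0.312% higher. At an unadjusted limma p below 0.05, 12 of the 77 tested genes were lower and 2 higher. Of the 4 called genes, 2 were members. All KY libraries lay below the others in 11 (14.3%, against 4.27% of all tested genes), and in 5 under either other scaling. Nitab4.5_0002330g0060 gave 4.85, 5.26 and 5.73 in KY and 8.11 to 15.9 elsewhere (limma adjusted p = 0.0216). Nitab4.5_0013277g0010 gave 2.66, 2.96 and 3.44 in KY, close to the lowest K326 library at 3.73 (limma adjusted p = 0.0467).

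Amino acid transporters had 3 of 33 genes called lower, all of them members, against 0.905% of all tested genes called lower. The KY signals of Nitab4.5_0000495g0090 were 0.43, 0.59 and 0.31 against 1.49 to 4.41 elsewhere (limma adjusted p = 0.0158). For Nitab4.5_0006701g0020 they were 0.27, 0.37 and 0.24 against 1.34 to 3.44 (limma adjusted p = 0.0342), and for Nitab4.5_0011394g0020 they were 0.49, 1.43 and 0.94 against 2.17 to 3.83 (limma adjusted p = 0.0373). KY was below every other library in all 3, at low signal. The family median was -0.09, against -0.10 over all genes.

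Cytochrome P450 genes, the oxidases of much secondary metabolism, had 4 of 100 called lower, against 0.905% of all tested genes. Of these 4 genes, 3 were members. Nitab4.5_0000123g0370 gave 41.0, 28.1 and 26.7 in KY and 55.4 to 114 elsewhere (limma adjusted p = 0.0327). UDP-glycosyltransferases also had 4 called lower, of 78, with 3 members. Nitab4.5_0007562g0010 gave 1.39, 1.44 and 1.01 in KY and 3.18 to 7.36 elsewhere (limma adjusted p = 0.00771), and Nitab4.5_0000407g0080 gave 1.10, 1.11 and 0.98 in KY, just under the 1.26 to 1.43 of K326 (limma adjusted p = 0.725 against K326).

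In other families most genes lay below the midpoint, as did 10613 of all 16348 tested genes, while few or none were called. The ARG7-type small auxin-induced genes, fast responders to auxin, had a median of -0.55, and 45 of 55 lay below the midpoint. Limma called 1 lower and 0 higher, against 0.905% and 0.312% of all tested genes. At an unadjusted limma p below 0.05, 18 ARG7-type genes were lower and 0 higher. Their single member, Nitab4.5_0000307g0200, gave 16.4, 16.4 and 12.5 in K326, 15.4, 13.1 and 14.7 in Y and 7.39, 8.12 and 7.21 in KY (difference -0.87 ± 0.14 (SE), limma adjusted p = 0.02, called against each material). Small heat shock genes had a median of -0.37 with 46 of 59 below the midpoint and 0 called by limma (18 lower at an unadjusted p below 0.05). All KY libraries lay below the others in 7 of the 59, against 4.27% of all tested genes. That count was 2 with median-of-ratios scaling and 3 with quantile normalization. Core and linker histones had a median of -0.36 and 0 of 97 called by limma (2 in each direction at an unadjusted p below 0.05). Here KY was below K326 in 93 genes and below Y in 41. All 7 terpene synthases lay below the midpoint, with a median of -0.67, 0 called by limma and 1 lower at an unadjusted p below 0.05.

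**Figure D4:**
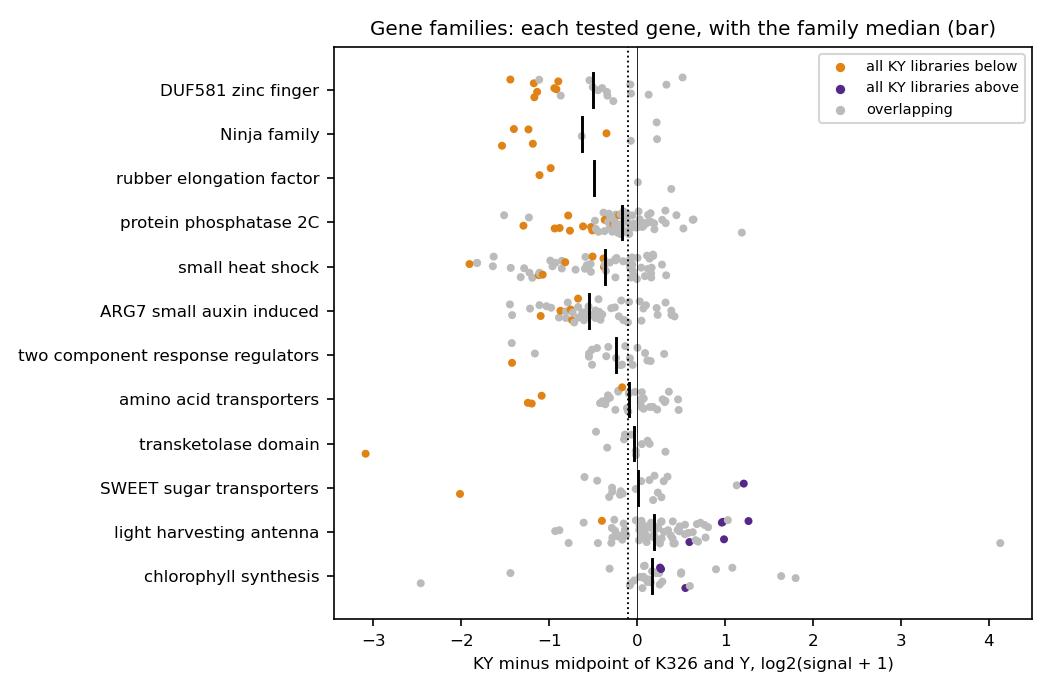
KY minus the midpoint on the log2(signal + 1) scale for each tested gene of 12 families, with the family median as a bar and the median of all tested genes (-0.10) as a dotted line. Orange points have all KY libraries below the other 6 and purple points have all above; DUF581 has 7 orange points of 21 and the Ninja family 5 of 9, while the purple points are mostly light-harvesting genes (5) and chlorophyll synthesis genes (3).

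A few families had medians above the midpoint. Chlorophyll synthesis genes had a median of 0.17, and 3 of 33 lay above in all KY libraries, against 0.869% of all tested genes. Limma called 0 higher and 1 lower, against 5 and 1 at an unadjusted p below 0.05. The gene called lower, Nitab4.5_0000733g0210, was not outside both materials, with means of 31.9 in K326, 0.013 in Y and 0.043 in KY. The 91 photosystem subunit genes had a median of 0.07 with 0 called by limma (2 in each direction at an unadjusted p below 0.05). Genes of the folate list had a median of 0.05, and none of the 32 had all KY libraries outside the others. Limma called 0 of them higher and 1 lower, against 2 and 3 at an unadjusted p below 0.05. Some genes on this list, such as Nitab4.5_0008985g0010, described with RibA and RibB, need not act in folate synthesis. Of the 23 nitrogen assimilation and transport genes, 3 had all KY libraries above, against 0.869% of all tested genes. These 23 genes had 0 called by limma and 3 higher at an unadjusted p below 0.05. Their summed signal was 2796 ± 107 in K326, 2713 ± 99.4 in Y and 3318 ± 275 in KY (SD, n = 3 each), and all 3 KY sums, 3038 to 3589, lay above the other 6, 2598 to 2874. The 621 ribosomal protein genes had 1 called in each direction and a median of -0.09.

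The members were scattered over the assembly. They lay on 105 scaffolds, and only 1 scaffold carried more than 1 of them: the F-box gene Nitab4.5_0001863g0050 and the GDXG lipase Nitab4.5_0001863g0160, both higher in KY, out of 5 tested genes there. The lipase gave 5.64, 6.67 and 5.38 in K326, 4.42, 4.48 and 4.92 in Y and 9.40, 9.05 and 8.94 in KY (limma adjusted p = 0.0286).

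For 22 members, 1 to 4 other tested genes carried an identical description, and in 12 of these the sum over all genes of that description kept all KY libraries outside. In 1 case the copies were called in opposite directions. The PC4-type transcriptional coactivator Nitab4.5_0000188g0350 gave 40.6, 37.5 and 40.8 in K326, 15.4, 18.0 and 15.3 in Y and 12.3, 11.3 and 8.10 in KY (difference -1.21, limma adjusted p = 0.00564). Its counterpart Nitab4.5_0001310g0060 gave 14.5, 12.3 and 17.3 in K326, 126, 148 and 111 in Y and 112, 119 and 70.5 in KY (difference 1.14, limma adjusted p = 0.0317). KY was near Y in both genes, and both also differed between K326 and Y.

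The members next to the threshold were similar in size to the first ones beyond it. A profilin gene, Nitab4.5_0001107g0030, and a methyl-CpG-binding gene, Nitab4.5_0007793g0050, had limma adjusted p of 0.0489 and 0.0488, with differences of -0.83 and -0.97. The first genes not called, an ARG7-type gene, Nitab4.5_0008453g0010, and a 2-hydroxyacid dehydrogenase, Nitab4.5_0000283g0400, had 0.0501 and 0.0505, with differences of -1.10 and -0.73.

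The 3 KY libraries contributed unequally. In the 91 members below, KY replicate 1 was the KY library closest to the other materials in 43 genes, replicate 2 in 32 and replicate 3 in 16. The median difference of a KY library from the midpoint in these genes was -1.17, -1.11 and -1.26. Without KY replicate 1, 371 genes met the rule, 310 below and 61 above, and without KY replicate 3 only 37 did, 29 below and 8 above. The outside part of the rule is easier to meet with a KY library left out. Called or not, KY lay below the others in 698 genes with all libraries, 2388 without KY replicate 1 and 907 without KY replicate 3. It lay above them in 142, 558 and 336. Of the 106 members, 88 of the 104 still tested without KY replicate 1 kept the call, and 28 of the 105 still tested without KY replicate 3. Without K326 replicates 1 or 2 the rule was met by 48 and 45 genes, and without Y replicates 1 or 2 by 51 and 67. All members that could be tested kept their direction in each of these fits.

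**Figure D5:**
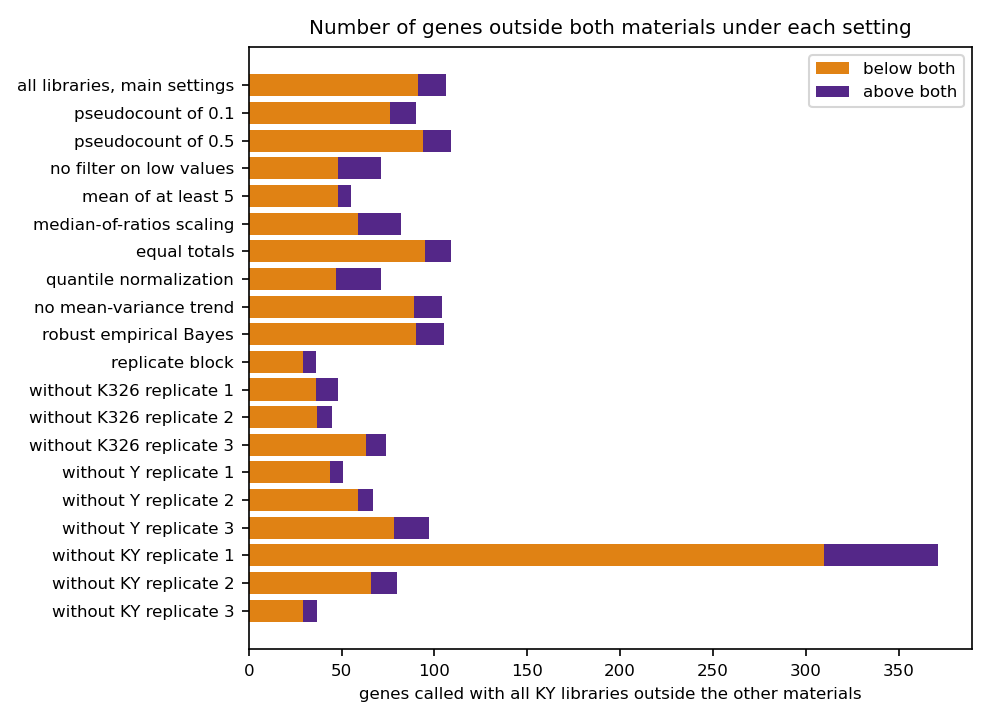
Number of genes called with all KY libraries outside the other materials under each setting, with genes below in orange and genes above in purple. The count is 106 with all libraries, 371 without KY replicate 1 and 37 without KY replicate 3, and genes below outnumber genes above in every setting drawn. With a library left out, the outside part of the rule is easier to meet.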

How the data were processed

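Leaf RNA-seq libraries of 3 materials, 3 per material, were analysed from 1 table. The authors deposited a signal per gene and library; per the submitters' processing notes HISAT2, StringTie and RSEM were used, with no version or role. The build was not given in the sources used here, nor was the way reads were counted. The deposited signal is not whole, carries no unit name, and sums to 551496 to 603165 per library. Read depth is therefore unknown, and no interval that needs it is given. The 3 mean columns equalled the means of the libraries within 3.33e-06. Gene names are the descriptions in the table; a reference of 79372 genes matched 0 identifiers. No sequences are shown.

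Genes with a mean of at least 1 were fitted on log2(signal + 1) with limma 3.58.1 in R 4.3.3 (1 mean per material, empirical Bayes with trend, Benjamini-Hochberg adjustment over all tested genes, threshold 0.05). A count model had been foreseen for whole counts and was not used. The procedure was tested on simulated data. Members and gene lists were chosen with earlier results of these data known, lists were matched by words in the descriptions, and some (Ninja, rubber elongation factor, response regulators) were added or narrowed after values were seen. Named genes were those with the largest differences among members with a mean of at least 5 in the highest material, up to 2 members per list by adjusted p, those called in both pairwise contrasts, and those next to the threshold; a few others were chosen after their values were seen. Same-numbered libraries did not deviate together: of 9 such pairs, with correlations of -0.166 to 0.177, 2 exceeded 0.1, so the numbers were not used as pairs. Alternatives covered the pseudocount, the filter, the scaling, the variance model, a replicate block and leaving out each library.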

Additional observations from a re-analysis of the deposited data

How the results depend on the processing

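The 199 called genes and the 106 members (15 above, 91 below; 23 called in both pairwise contrasts) stayed within 1.5 times of these counts with a pseudocount of 0.1 or 0.5, equal totals, no mean-variance trend and robust empirical Bayes. A minimum mean of 5 gave 95 called genes, 28 higher and 67 lower, with 55 members, 7 above and 48 below, and 15 called in both pairwise contrasts. With no filter, 23 genes lay above and 48 below; with median-of-ratios scaling 23 and 59, and with quantile normalization 24 and 47. The fit with the replicate block, whose numbers do not pair the libraries, called 88 genes, 24 higher and 64 lower, with 36 members, 7 above and 29 below, and 13 in both pairwise contrasts; 2 of 9 libraries correlated best with their own number. Leaving out 1 library gave 86 to 453 called genes, 26 to 92 higher and 59 to 361 lower, 37 to 371 members, 7 to 61 above and 29 to 310 below, and 8 to 108 in both pairwise contrasts; the extremes of the called and member counts came without KY replicate 3 and without KY replicate 1. With a library left out, the outside part of the rule is easier to meet. Leaving out KY replicate 1 and K326 replicate 3 together, chosen after seeing the data, gave 173 members, 27 above and 146 below. Of the 59 named genes that were called, 21 kept the call in every setting that tested them, transketolase, the mitochondrial carrier, the Wax2 gene and both SWEET genes among them. Over all named genes and settings, the call was lost in 319 of 1188 cases and reversed in 0. A test on counts was not run, since the table holds none, and the NB-ARC resistance list had no gene with a mean of at least 5. The unknown depth limits what can be said of genes near 0: 25715 listed genes were at 0 in every library, and of 27437 with a mean above 0 and below 1, not tested, 152 had all KY libraries above and 336 below. The causes of these changes were not tested.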
